A study of Mus musculus with 33 samples.

Results

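The 3 genes of hepatic fructose metabolism and sugar uptake described here, Khk, Slc2a2 and Sord, were followed in livers of male mice with and without G6pc, the catalytic subunit of glucose-6-phosphatase. They were chosen by name, with earlier results of these data known, and make 3 of the 25988 genes in the count table, and all 3 passed the filter on low counts that kept 10179 genes. RNA was measured by 3' end sequencing of 33 liver libraries from C57BL/6J males, infected at 13 to 18 weeks of age with an AAV that expresses an shRNA and sampled nonfasted 10 days after the last tamoxifen injection. The groups were shChREBP/L-G6pc-/- (n = 9 libraries), shSCR/L-G6pc-/- (n = 8), shChREBP/L-G6pc+/+ (n = 8) and shSCR/L-G6pc+/+ (n = 8), where shChREBP is an shRNA against the transcription factor ChREBP (gene Mlxipl) and shSCR is its scrambled control. All mice carried floxed G6pc alleles, and all received an AAV and tamoxifen. The L-G6pc-/- mice also carried a tamoxifen-inducible Cre under the serum albumin promoter, which acts in hepatocytes, so deletion is expected in hepatocytes alone. The library titles read G6PCp, G6PC, WTp and WT for the groups, in the order given above. Reading G6PC as L-G6pc-/- and the suffix p as shChREBP was inferred from the study's design. Whether every library comes from its own mouse is not in the labels, so n counts libraries and p-values measure the spread between libraries. The comparisons ask how these genes differ when glucose-6-phosphatase is lost from hepatocytes and when ChREBP is knocked down with or without that loss. The L-G6pc+/+ mice carried no Cre. The presence of the Cre and the loss of G6pc therefore cannot be told apart for any gene compared between the genotypes.

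Fructose enters hepatic metabolism through a short pathway. Ketohexokinase (KHK, gene Khk) phosphorylates fructose to fructose 1-phosphate, that product is split into dihydroxyacetone phosphate and glyceraldehyde, and triokinase (Tkfc) phosphorylates the glyceraldehyde, which bypasses the regulated step of glycolysis at phosphofructokinase. GLUT2 (Slc2a2) is the main facilitative glucose carrier of the hepatocyte membrane and also carries fructose. Sorbitol dehydrogenase (Sord) oxidizes sorbitol to fructose, the last step of the polyol pathway by which cells make fructose from glucose. ChREBP is a sugar-responsive transcription factor that binds DNA with its partner Mlx at carbohydrate response elements, each built from a pair of E-box-like motifs.

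In GRCm38, Khk (ENSMUSG00000029162) lies on chromosome 5 from 30921431 to 30931248, with 4 protein-coding transcripts of up to 9 exons. Its isoforms Khk-A and Khk-C differ by an internal exon, which reads from the 3' end do not separate. Slc2a2 (ENSMUSG00000027690) lies on chromosome 3 from 28697903 to 28731359 and has 11 exons. An antisense gene, 1700112D23Rik, overlaps Slc2a2 on the other strand and had at most 1 read in any library. Sord (ENSMUSG00000027227) lies on chromosome 2 from 122234749 to 122265340 and has 9 exons. All 3 are on the plus strand, and no transcript of another gene matched the last 500 bases of any of them at 95% identity over 50 bases or more. The last 500 bases of Mlxipl, the ChREBP gene used below to check the knockdown, matched transcripts of 6 other genes at that identity over at least 50 bases, so reads from that stretch could be shared with them.

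The stretches before the genes are shown because they are the part of the windows searched for the carbohydrate response element of ChREBP that lies outside the annotated genes. The windows were the 250 bases upstream of the RefSeq start in GRCm38.p6. The RefSeq start lies 128 bases after the GENCODE M21 gene start for Khk, 90 bases after it for Sord and at the same base for Slc2a2, so the sequences are printed 5' to 3' up to the GENCODE gene start.
Khk, chr5:30921309-30921430, plus strand: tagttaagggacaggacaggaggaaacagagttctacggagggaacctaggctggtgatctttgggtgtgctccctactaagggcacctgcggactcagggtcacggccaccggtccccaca
Slc2a2, chr3:28697653-28697902, plus strand: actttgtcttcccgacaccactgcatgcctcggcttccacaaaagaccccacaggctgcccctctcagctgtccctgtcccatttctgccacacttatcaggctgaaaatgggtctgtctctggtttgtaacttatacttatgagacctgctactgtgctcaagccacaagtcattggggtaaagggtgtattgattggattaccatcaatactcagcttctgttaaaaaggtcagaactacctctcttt
Sord, chr2:122234589-122234748, plus strand: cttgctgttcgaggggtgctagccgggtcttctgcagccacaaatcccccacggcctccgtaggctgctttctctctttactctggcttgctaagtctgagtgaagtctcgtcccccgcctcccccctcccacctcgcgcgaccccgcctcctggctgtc
The Khk window held 1 CACGTG, a single E-box, from 71 to 66 bases before the RefSeq start, and the Slc2a2 and Sord windows held none. It lies inside the gene as GENCODE draws it, 57 to 62 bases after the gene's first base, and is shown in capitals with the bases next to it.
Khk E-box, chr5:30921478-30921503, plus strand: cgttccccgtCACGTGacaccgttaa
Of 32851 RefSeq promoter windows of this length, 6.02% held CACGTG. None of the 3 windows held the full carbohydrate response element, searched as CACGNG and CNCGTG with 5 bases between them and present in 0.0396% of windows, or the HNF1 motif, searched as GTTAAT and ATTAAC with 1 base between them and present in 0.00913%. Both strands were searched for each motif, and the carbohydrate response element can contain an E-box. A match is a description of these letters and not a measured site, and no match covers this window only. The GC content of the windows was 67.2% for Khk, 47.2% for Slc2a2 and 66.8% for Sord.

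Total counts ran from 1497843 to 3546852 per library (median 2141043). Each library held at least 606 reads of Khk, 367 of Slc2a2 and 1332 of Sord. Levels are given as CPM, counts scaled by library size and TMM factor. Because 3' tags are not scaled by length, levels are compared between groups and not between genes. Mlxipl, the target of the knockdown, was measured at 386 ± 112 CPM (n = 9, SD) in shChREBP/L-G6pc-/- and at 574 ± 45.4 CPM (n = 8, SD) in shSCR/L-G6pc-/- livers (log2 fold change -0.57, SE 0.13, adjusted p = 0.00318, edgeR). It was measured at 366 ± 49.9 CPM (n = 8, SD) in shChREBP/L-G6pc+/+ and at 535 ± 57.5 CPM (n = 8, SD) in shSCR/L-G6pc+/+ livers (-0.55, SE 0.13, adjusted p = 0.0107, edgeR). The target of the deletion, G6pc, was not lower by its 3' reads. It was measured at 346 ± 192 CPM (n = 8, SD) in shSCR/L-G6pc-/- and at 236 ± 86.4 CPM (n = 8, SD) in shSCR/L-G6pc+/+ livers (0.56, adjusted p = 0.445, edgeR). Reads from the 3' end check the deletion only if it takes that end, and the floxed part is not given in the sources used here. The genotypes therefore rest on the labels as read above. The libraries s29, s30, s32 and s33, 4 of the 9 of shChREBP/L-G6pc-/-, stood apart from the other 5 on the first principal component (14.7% of the variance). Their Mlxipl was 216 to 359 CPM, against 441 to 500.4 CPM in the other 5, and without them the log2 fold change of Mlxipl with the knockdown in L-G6pc-/- livers was -0.27, not called (adjusted p = 0.231, edgeR). Several results that include them are given below with and without them. Leaving them out leaves 5 libraries in that group and takes the genes called for the knockdown in L-G6pc-/- from 751 to 96. The fold changes are therefore given beside the calls.

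Khk was higher in shSCR/L-G6pc-/- than in shSCR/L-G6pc+/+ livers and lower with the ChREBP knockdown in both genotypes. In shSCR/L-G6pc-/- livers Khk ran from 1035 to 1380 CPM (median 1100.5, mean 1150 ± 132, n = 8, SD), against 489 to 650 CPM (median 539.8, mean 547 ± 50.6, n = 8, SD) in shSCR/L-G6pc+/+ livers. The ranges did not overlap, and every shSCR/L-G6pc-/- library was above every shSCR/L-G6pc+/+ library. In this comparison the ranges of Pklr, Fbp1, Gpd1, Acly and Elovl6, described below, did not overlap either. The share of all genes without overlap was not computed. Khk rose 2.10-fold (log2 fold change 1.07, SE 0.12, adjusted p = 2.14e-08, edgeR quasi-likelihood test with Benjamini-Hochberg adjustment over all genes tested). In this comparison 3.21% of all genes tested were called, and of the members Khk and Slc2a2 were called and Sord was not.

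With the knockdown in L-G6pc-/- livers, Khk was lower by 0.82 on the log2 scale. The 9 shChREBP/L-G6pc-/- libraries ran from 516 to 860 CPM (median 644.9, mean 650.1 ± 109), against the shSCR/L-G6pc-/- range above. Again no library of one group reached the range of the other. The same held for Mlxipl, Fbp1, Gpd1, Acaca, Acly and Elovl6, and the share of all genes was again not computed. The log2 fold change of Khk was -0.82 (SE 0.11, fold 0.565, adjusted p = 4.73e-06, edgeR), and 7.38% of all genes were called in this comparison. Without s29, s30, s32 and s33 it was -0.73 (adjusted p = 0.00138, edgeR). In the same contrast Khk and Slc2a2 were called and Sord was not.

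In L-G6pc+/+ livers the knockdown also went with less Khk. The 8 shChREBP/L-G6pc+/+ libraries ran from 312 to 644 CPM (median 367.8, mean 398 ± 103), against 489 to 650 CPM in shSCR/L-G6pc+/+. Of these, 7 lay between 312 and 401 CPM, under the lowest shSCR/L-G6pc+/+ library, and s12 stood alone at 644 CPM. The log2 fold change was -0.46 (SE 0.12, adjusted p = 0.0144, edgeR), and 5.09% of all genes were called. Without s12 it was -0.59 (adjusted p = 0.000297, edgeR), and without s9 and s13 it was -0.39 and no longer called (adjusted p = 0.0615, edgeR). The libraries s9 and s13 were at 358 and 312 CPM of Khk. They lay lowest of their group on the first principal component (-19.8 and -21.2, with s11 next at -15.7). The fit without them kept s12. Khk was the only member called in this comparison.

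Between the genotypes under the knockdown, Khk stayed higher in L-G6pc-/-. The log2 fold change of shChREBP/L-G6pc-/- over shChREBP/L-G6pc+/+ livers was 0.71 (SE 0.11, adjusted p = 5.21e-05, edgeR), where 10.8% of all genes were called. The lowest shChREBP/L-G6pc-/- library, at 516 CPM, was above 7 of the 8 shChREBP/L-G6pc+/+ libraries. Set against shSCR/L-G6pc+/+ livers, Khk in shChREBP/L-G6pc-/- livers was higher by 0.25 in log2 units (95% interval 0.02 to 0.47), and this did not pass the adjusted test (adjusted p = 0.148, unadjusted p = 0.0313, edgeR), in a comparison where 13.1% of genes were called. With scaling by library size alone it was 0.32 and was called (adjusted p = 0.0284, edgeR). Of the 9 shChREBP/L-G6pc-/- libraries, 4 were above the highest shSCR/L-G6pc+/+ library.

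The knockdown effect on Khk was 0.37 more negative on the log2 scale in L-G6pc-/- than in L-G6pc+/+ livers, and the difference did not pass its test (95% interval -0.69 to -0.04, adjusted p = 0.358, unadjusted p = 0.0276, edgeR). Only 0.0491% of all genes passed this test of the difference. Without s12 the difference was -0.23 (adjusted p = 0.567, edgeR), and without s29, s30, s32 and s33 it was -0.27 (adjusted p = 0.528, edgeR). The comparisons above share groups and are not independent of each other.

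**Figure D1:**
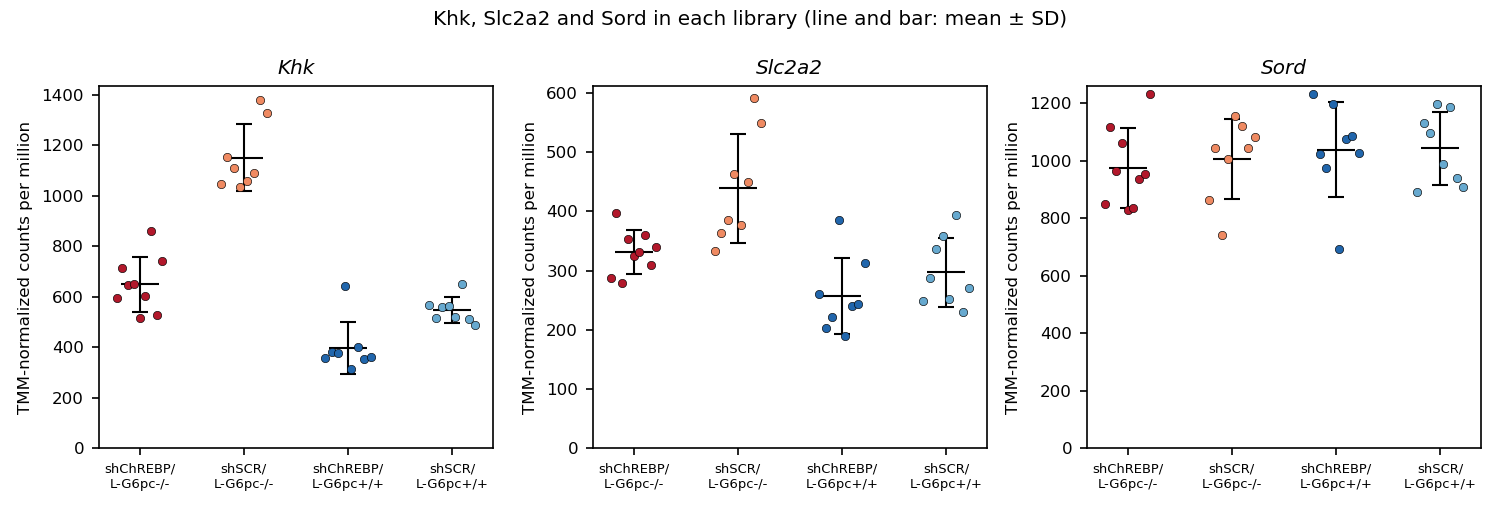
CPM (TMM-normalized counts) of Khk, Slc2a2 and Sord in the 33 libraries, arranged by group, with a point for each library and the mean ± SD as a line and bar. The shSCR/L-G6pc-/- libraries sit between 1035 and 1380 CPM for Khk, above all other libraries, while the Sord ranges of the 4 groups overlap.

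Slc2a2, the GLUT2 gene, was higher in shSCR/L-G6pc-/- than in shSCR/L-G6pc+/+ livers and lower with the knockdown in L-G6pc-/- livers, the second call close to the threshold, and its groups overlapped. In shSCR/L-G6pc-/- livers it ran from 333 to 591 CPM (median 417.7, mean 439 ± 92.5, n = 8, SD), against 230 to 393 CPM (median 279, mean 297 ± 58.9, n = 8, SD) in shSCR/L-G6pc+/+ livers. Of the 8 shSCR/L-G6pc-/- libraries, 4 were above the highest shSCR/L-G6pc+/+ library. Slc2a2 rose 1.48-fold (log2 fold change 0.56, SE 0.13, adjusted p = 0.00754, edgeR). The smallest value after leaving out any 1 library was 0.49, and the call held in all 33 of those fits.

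In shChREBP/L-G6pc-/- livers Slc2a2 ran from 278 to 397 CPM (median 330.7, mean 331 ± 37.1, n = 9, SD). The highest of these libraries lay under 4 of the 8 shSCR/L-G6pc-/- libraries, and the log2 fold change between the groups was -0.41 (SE 0.13, adjusted p = 0.0404, edgeR). Leaving out 1 library ended this call in 10 of 33 fits, namely without s20, s22, s23, s24, s25, s27, s29, s30, s32 or s33, where the adjusted p was at most 0.109 and the log2 fold change ran from -0.41 to -0.33. Leaving out s29, s30, s32 and s33 together gave -0.38 (adjusted p = 0.299, edgeR), with scaling by library size alone -0.30 (adjusted p = 0.0937, edgeR), and with limma on the deposited voom table -0.39 (adjusted p = 0.0523).

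In shChREBP/L-G6pc+/+ livers Slc2a2 ran from 189 to 385 CPM (median 241.2, mean 257 ± 64.3, n = 8, SD), which overlapped the shSCR/L-G6pc+/+ range. Its log2 fold change, -0.21, was not called (95% interval -0.48 to 0.06, adjusted p = 0.368, edgeR). As for Khk, s12 was the highest library of its group. The 2 knockdown groups differed by 0.37 with an adjusted p of 0.056 in edgeR (shChREBP/L-G6pc-/- over shChREBP/L-G6pc+/+), and this difference passed with DESeq2 (adjusted p = 0.0436) and with limma-voom (adjusted p = 0.0358). Set against shSCR/L-G6pc+/+ livers, Slc2a2 in shChREBP/L-G6pc-/- livers was 0.16 higher (95% interval -0.10 to 0.42, adjusted p = 0.482, edgeR). The difference between the knockdown effects of the genotypes was -0.20 (95% interval -0.57 to 0.17, adjusted p = 0.722, edgeR).

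Sord, the polyol pathway gene, did not pass the test in any of the comparisons, in edgeR (unadjusted p of 0.363 or above) or in any alternative run. It ran from 828 to 1234 CPM in shChREBP/L-G6pc-/- (median 954, mean 976 ± 138, n = 9, SD), from 741 to 1158 in shSCR/L-G6pc-/- (median 1045, mean 1008 ± 139, n = 8, SD), from 693 to 1232 in shChREBP/L-G6pc+/+ (median 1052, mean 1039 ± 165, n = 8, SD) and from 893 to 1199 in shSCR/L-G6pc+/+ livers (median 1044, mean 1044 ± 126, n = 8, SD). All 4 ranges overlap. The log2 fold change was -0.05 for shSCR/L-G6pc-/- over shSCR/L-G6pc+/+ (95% interval -0.27 to 0.17), -0.05 for the knockdown in L-G6pc-/- (-0.26 to 0.17) and -0.01 for the knockdown in L-G6pc+/+ (-0.22 to 0.21). These intervals do not exclude a small change of Sord, and the change measured for Khk lay outside the Sord interval in each of these contrasts.

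**Figure D2:**
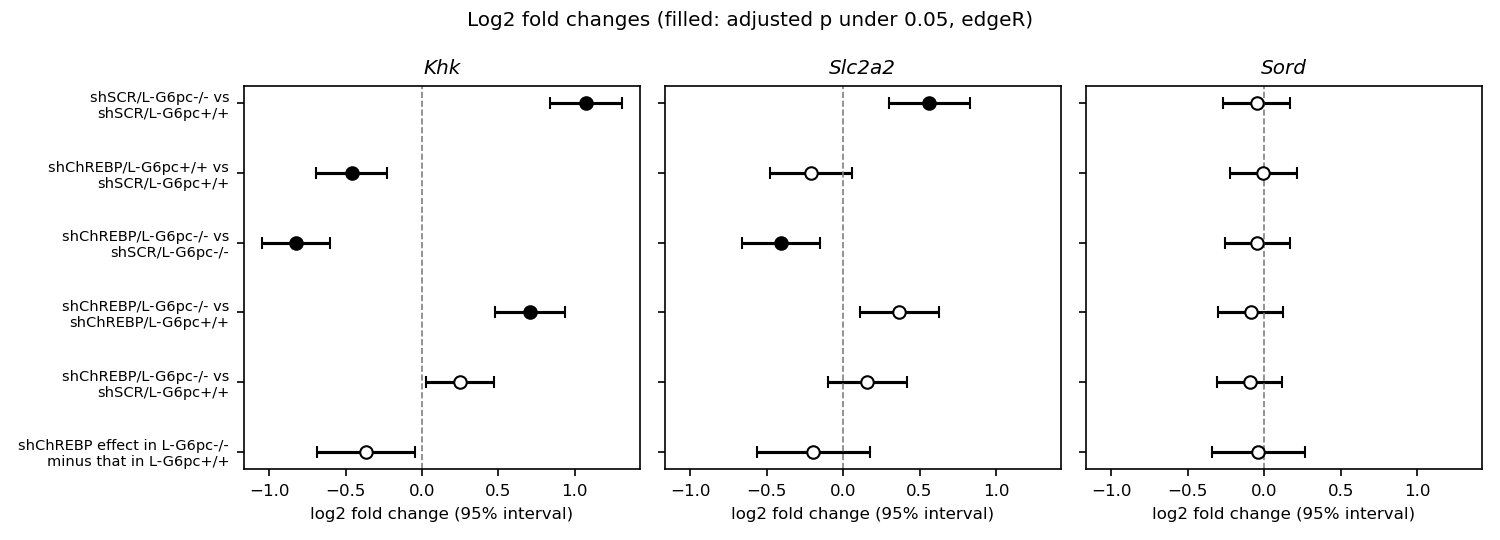
Log2 fold changes of the 3 genes in each comparison with 95% intervals from edgeR, where a filled point has an adjusted p under 0.05. Khk has 4 filled points, from -0.82 to 1.07, Slc2a2 has 2, and the Sord points lie between -0.10 and -0.01 with none filled.

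The order of the group levels was the same for Khk and Slc2a2, with shSCR/L-G6pc-/- highest, then shChREBP/L-G6pc-/-, shSCR/L-G6pc+/+ and shChREBP/L-G6pc+/+. For Khk the neighbours shChREBP/L-G6pc-/- and shSCR/L-G6pc+/+ did not differ beyond the adjusted test. For Slc2a2 the first neighbours in that order differed by the test and the later ones did not. For Sord the means ran from 976 to 1044 CPM, in another order, and no comparison between groups passed.

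Ratios of the members' counts within a library do not depend on library scaling, and were added after the data had been seen. They show unequal change between a pair of genes and not which gene changed. The log2 ratio of Khk to Sord averaged 0.20 ± 0.24 (n = 8, SD) in shSCR/L-G6pc-/- and -0.93 ± 0.15 (n = 8, SD) in shSCR/L-G6pc+/+ livers, a difference of 1.12 (two-sided exact permutation p = 0.000155, 0.000777 after adjustment over the 15 ratio tests). In shChREBP/L-G6pc-/- livers it averaged -0.59 ± 0.21 (n = 9, SD), a difference of -0.79 from shSCR/L-G6pc-/- (exact permutation p = 0.000123, adjusted 0.000777). In shChREBP/L-G6pc+/+ livers it averaged -1.40 ± 0.27 (n = 8, SD), a difference of -0.47 from shSCR/L-G6pc+/+ (exact permutation p = 0.0014, adjusted 0.00233).

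The Khk to Sord ratio of shChREBP/L-G6pc-/- livers was 0.34 above that of shSCR/L-G6pc+/+ livers (exact permutation p = 0.000905, adjusted 0.00194). For Khk itself this comparison did not pass the adjusted edgeR test. The Slc2a2 to Sord ratio gave differences of 0.62 for shSCR/L-G6pc-/- over shSCR/L-G6pc+/+ (exact permutation p = 0.000311, adjusted 0.000932) and of -0.34 for shChREBP/L-G6pc-/- over shSCR/L-G6pc-/- (exact permutation p = 0.012, adjusted 0.015). The knockdown in L-G6pc+/+ gave -0.21 (exact permutation p = 0.0754, adjusted 0.0808). The Slc2a2 to Sord ratio of shChREBP/L-G6pc-/- livers was also 0.27 above that of shSCR/L-G6pc+/+ livers (exact permutation p = 0.00683, adjusted 0.00931) and 0.48 above that of shChREBP/L-G6pc+/+ livers (exact permutation p = 0.00115, adjusted 0.00216), comparisons in which Slc2a2 itself was not called in edgeR. The log2 fold change of Sord itself was -0.10 and -0.09 in these comparisons. Ratio tests were adjusted over 15 tests and edgeR tests over all genes tested, so calls of the 2 kinds are not at a like threshold.

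The Khk to Slc2a2 ratio differed as well, so the changes of this pair were unequal. It averaged 1.41 ± 0.20 (n = 8, SD) in shSCR/L-G6pc-/- and 0.90 ± 0.20 (n = 8, SD) in shSCR/L-G6pc+/+ livers, a difference of 0.51 (exact permutation p = 0.000311, adjusted 0.000932). In shChREBP/L-G6pc-/- livers it averaged 0.96 ± 0.20 (n = 9, SD), a difference of -0.45 from shSCR/L-G6pc-/- (exact permutation p = 0.000658, adjusted 0.00165) and of 0.06 from shSCR/L-G6pc+/+ (exact permutation p = 0.524, adjusted 0.524). In shChREBP/L-G6pc+/+ livers the ratio averaged 0.64 ± 0.23 (n = 8, SD), a difference of -0.26 from shSCR/L-G6pc+/+ (exact permutation p = 0.0246, adjusted 0.0283). That difference no longer passed without s9 and s13 (-0.25, adjusted p = 0.0661, exact permutation test), or when s1, s5, s7, s9, s15 or s16 alone was left out, where over all 33 libraries left out in turn it ran from -0.31 to -0.20 with an adjusted p of at most 0.0586 (exact permutation test).

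**Figure D3:**
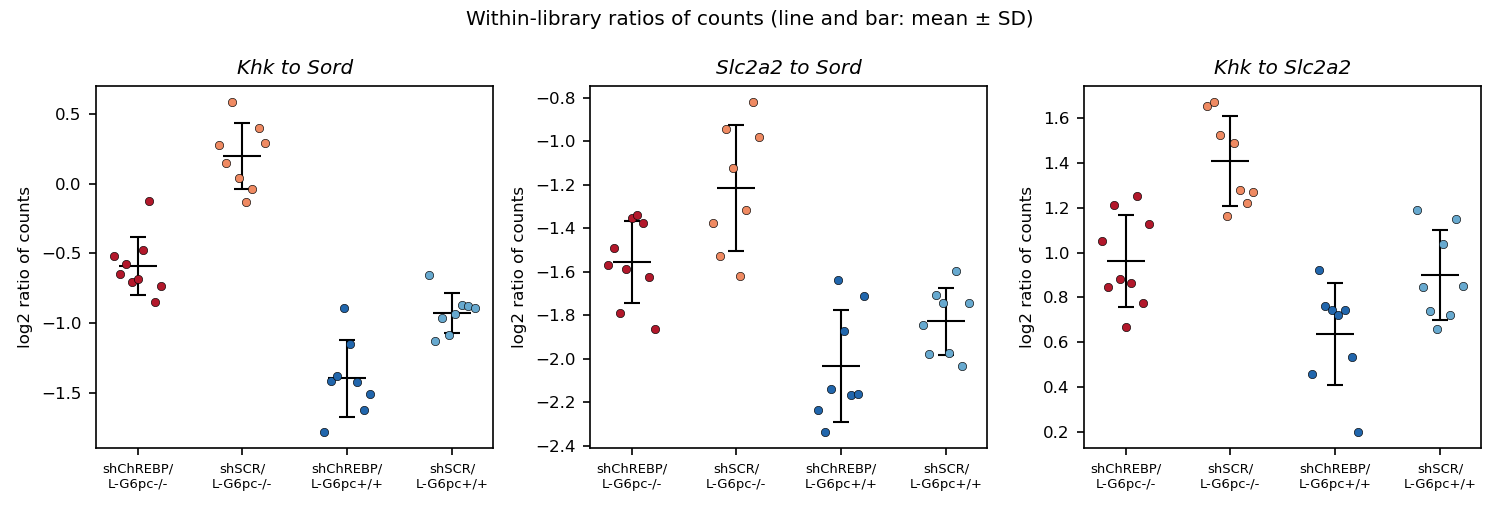
Log2 ratios of counts within each library for the pairs Khk to Sord, Slc2a2 to Sord and Khk to Slc2a2 by group, with a point for each library and the mean ± SD as a line and bar. The Khk to Sord ratio averages 0.20 in shSCR/L-G6pc-/- and -1.40 in shChREBP/L-G6pc+/+ livers, the highest and lowest of the 4 groups.

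Within the groups the 3 genes varied together from library to library. Over deviations of log2 CPM from the group means in the 33 libraries, Khk and Slc2a2 had a Pearson r of 0.66 (permutation p = 5e-05, adjusted 0.0003 over 6 relations) and a Spearman rho of 0.51 (permutation p = 0.00333, adjusted 0.00999). Within the groups r ran from 0.52 in shChREBP/L-G6pc-/- to 0.77 in shSCR/L-G6pc-/-, and without the libraries farthest from the median, s12 and s31, it was 0.58. Slc2a2 and Sord had an r of 0.58 (permutation p = 0.00113, adjusted 0.00339) and a rho of 0.60 (permutation p = 0.00058, adjusted 0.00348), and r was 0.58 without s12 and s23. Khk and Sord had an r of 0.48 (permutation p = 0.0203, adjusted 0.0407) and a rho of 0.44 (permutation p = 0.0137, adjusted 0.0275), and r was 0.55 without s12 and s31. Without s29, s30, s32 and s33 the Khk and Sord relation no longer passed (r = 0.43, permutation p = 0.0667, adjusted 0.133). Values of 1 library share its scaling, its depth and its cell makeup, which also joins genes.

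For none of the 3 did the relation with Mlxipl pass after adjustment. For Khk the r with Mlxipl was 0.37 (permutation p = 0.0596, adjusted 0.0894) with a rho of 0.31 (permutation p = 0.0978, adjusted 0.147), and r was 0.35 without s12 and s31 but 0.12 without s29, s30, s32 and s33. For Slc2a2 the r with Mlxipl was -0.07 (permutation p = 0.65, adjusted 0.71) and for Sord it was 0.07 (permutation p = 0.71, adjusted 0.71), with rho of -0.18 (permutation p = 0.285, adjusted 0.342) and 0.02 (permutation p = 0.905, adjusted 0.905), and r was -0.14 without s12 and s23 for Slc2a2 and 0.15 without s13 and s19 for Sord. In s29, s30, s32 and s33, where Mlxipl was lowest, Khk ran from 516 to 741 CPM, against 595 to 860 CPM in the other 5 shChREBP/L-G6pc-/- libraries. Slc2a2 ran from 309 to 339 CPM there, against 278 to 397 CPM in the other 5.

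The genes whose log2 CPM was most like that of Khk over the 33 libraries, of 8950 compared, were Acly (r = 0.94), Elovl6 (0.92), Fasn (0.90), Acaca (0.90) and Mycl (0.89). Acly makes cytosolic acetyl-CoA from citrate, Acaca makes malonyl-CoA, Fasn makes palmitate and Elovl6 elongates it, while Mycl encodes a Myc-family transcription factor. For Slc2a2 they were Dynlt3 (0.86), Khk (0.85), H2-Q10 (0.83), Nudt4 (0.82) and Ugp2 (0.81), the last being the enzyme that makes UDP-glucose. For Sord they were Rbp4 (0.77), Hpd (0.74), Aldh7a1 (0.72), Gstz1 (0.72) and Acaa2 (0.71), of which Rbp4 encodes the plasma retinol carrier and Hpd and Gstz1 act in tyrosine breakdown. Over deviations from the group means, which leave out the differences between groups, r ran from 0.33 to 0.64 for the Khk list, 0.56 to 0.70 for the Slc2a2 list and 0.73 to 0.81 for the Sord list. The points share the groups and the libraries, so these values describe likeness only.

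Tkfc, the triokinase gene further down the fructose pathway, rose in shSCR/L-G6pc-/- livers, at 311 to 613 CPM (median 352.5), against 116 to 312 CPM (median 157.6) in shSCR/L-G6pc+/+ livers (1.16, SE 0.16, adjusted p = 1.16e-05, edgeR). With the knockdown in L-G6pc-/- it ran from 257 to 484 CPM (median 380.7), and the log2 fold change over shSCR/L-G6pc-/- was 0.04, which did not pass the test. In L-G6pc+/+ the knockdown gave -0.29, which did not pass either. Whether Tkfc differs from Khk in its response to the knockdown was not tested.

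The first enzyme of the polyol pathway, aldose reductase (Akr1b3), was measured at 0 to 7 reads per library and was too low to test. Of 20 listed genes of fructose, polyol and hexose metabolism beside the members, all were counted and 14 could be tested. In shSCR/L-G6pc-/- over shSCR/L-G6pc+/+ livers, 3 rose (Tkfc, Fbp1 and Gpd1) and 11 did not pass, with a median log2 fold change of 0.10 against 0.00 over all genes. Of all genes tested, 2.17% were called higher. Fbp1, fructose-1,6-bisphosphatase of gluconeogenesis, rose by 0.96 (adjusted p = 2.14e-08, edgeR), and Gpd1, which makes glycerol 3-phosphate from dihydroxyacetone phosphate, by 0.62 (adjusted p = 0.000245, edgeR).

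With the knockdown in L-G6pc-/- livers, 2 of the 14 fell (Fbp1 and Gpd1), 2 rose and 10 did not pass, with a median of 0.02 against 0.01 over all genes. Of all genes tested, 4.17% were called lower and 3.21% higher. Gpd1 fell by 0.62 (adjusted p = 0.000163, edgeR) and Fbp1 by 0.34 (adjusted p = 0.0287, edgeR). The genes that rose were Xylb, xylulokinase, by 0.33 (adjusted p = 0.0152, edgeR) and Akr1a1, aldehyde reductase, by 0.27 (adjusted p = 0.0332, edgeR). When s29, s30, s32 and s33 were left out, 1 of the 14 fell (Gpd1, -0.58) and 1 rose (Xylb, 0.43). Of all 10399 genes tested in that fit, 96 were called, 29 of them higher. In L-G6pc+/+ livers 0 of the 14 passed with the knockdown in edgeR or in any alternative run (median -0.11 against 0.03 over all genes), and 2 had an unadjusted p under 0.05. Of all genes tested, 5.09% were called in that comparison. In L-G6pc-/- the calls of Xylb and Akr1a1 were lost with no filter on low counts and with only the groups compared, and that of Fbp1 with no filter and with library size only. The call of Fbp1 was lost when s18 or s30 alone was left out, with values from -0.37 to -0.30 over the 33 such fits. The call of Akr1a1 was lost when s19, s20, s22, s29 or s32 alone was left out, with values from 0.22 to 0.30. Akr1a1 is named because it makes up this small count, chosen after its values were seen.

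Of 17 other sugar carriers listed, 14 were counted and 7 could be tested, while Slc2a7, Slc5a2 and Slc5a10 were not analysed here. In shSCR/L-G6pc-/- over shSCR/L-G6pc+/+ livers 2 of the 7 rose and 5 did not pass (median 0.20). Over all genes tested 2.17% were called higher (median 0.00). Slc2a5, the fructose carrier GLUT5, rose by 1.27 on the log2 scale (SE 0.22, adjusted p = 0.000131, edgeR), at 12.2 to 26.1 CPM (median 20), against 4.54 to 15.1 CPM (median 6.84) in shSCR/L-G6pc+/+. These are 9 to 58 reads per library. Slc2a4, the insulin-responsive carrier GLUT4 of muscle and fat, rose by 1.96 (SE 0.38, adjusted p = 0.000904, edgeR) from few reads, 3 to 45 per library.

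With the knockdown in L-G6pc-/- livers 4 of the 7 fell and 3 did not pass (median -0.51). Over all genes tested 4.17% were called lower (median 0.01). Slc2a5 fell by 0.75 (adjusted p = 0.0148, edgeR), Slc2a4 by 1.49 (adjusted p = 0.00485, edgeR), Slc2a9, the urate carrier GLUT9, by 0.51 (adjusted p = 0.0356, edgeR) and Slc37a4, the glucose 6-phosphate carrier of the endoplasmic reticulum, by 0.51 (adjusted p = 0.0121, edgeR). None of these 4 calls held without s29, s30, s32 and s33, where the log2 fold changes were -0.77 for Slc2a5, -1.30 for Slc2a4, -0.22 for Slc2a9 and -0.35 for Slc37a4. The call of Slc2a9 was also lost with library size only (-0.42), with no filter on low counts and with only the groups compared (both -0.51), and in 9 of the 33 fits without 1 library, namely s17, s18, s21, s22, s24, s29, s30, s32 or s33, with values from -0.60 to -0.42 over the 33. In L-G6pc+/+ livers 2 of the 7 fell and 5 did not pass (median -0.47), namely Slc2a9 by 0.81 (adjusted p = 0.0028, edgeR) and Slc37a4 by 0.47 (adjusted p = 0.0382, edgeR). There 3.07% of all genes tested were called lower (median 0.03). The call of Slc37a4 was lost in 12 of the 33 fits without 1 library, each time a shSCR/L-G6pc+/+ library (s2, s3, s4, s6 or s7) or a shChREBP/L-G6pc+/+ library (s9, s10, s11, s13, s14, s15 or s16). Slc2a1, the widespread carrier GLUT1, had 0 to 21 reads per library and did not pass in any of these 3 comparisons.

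**Figure D4:**
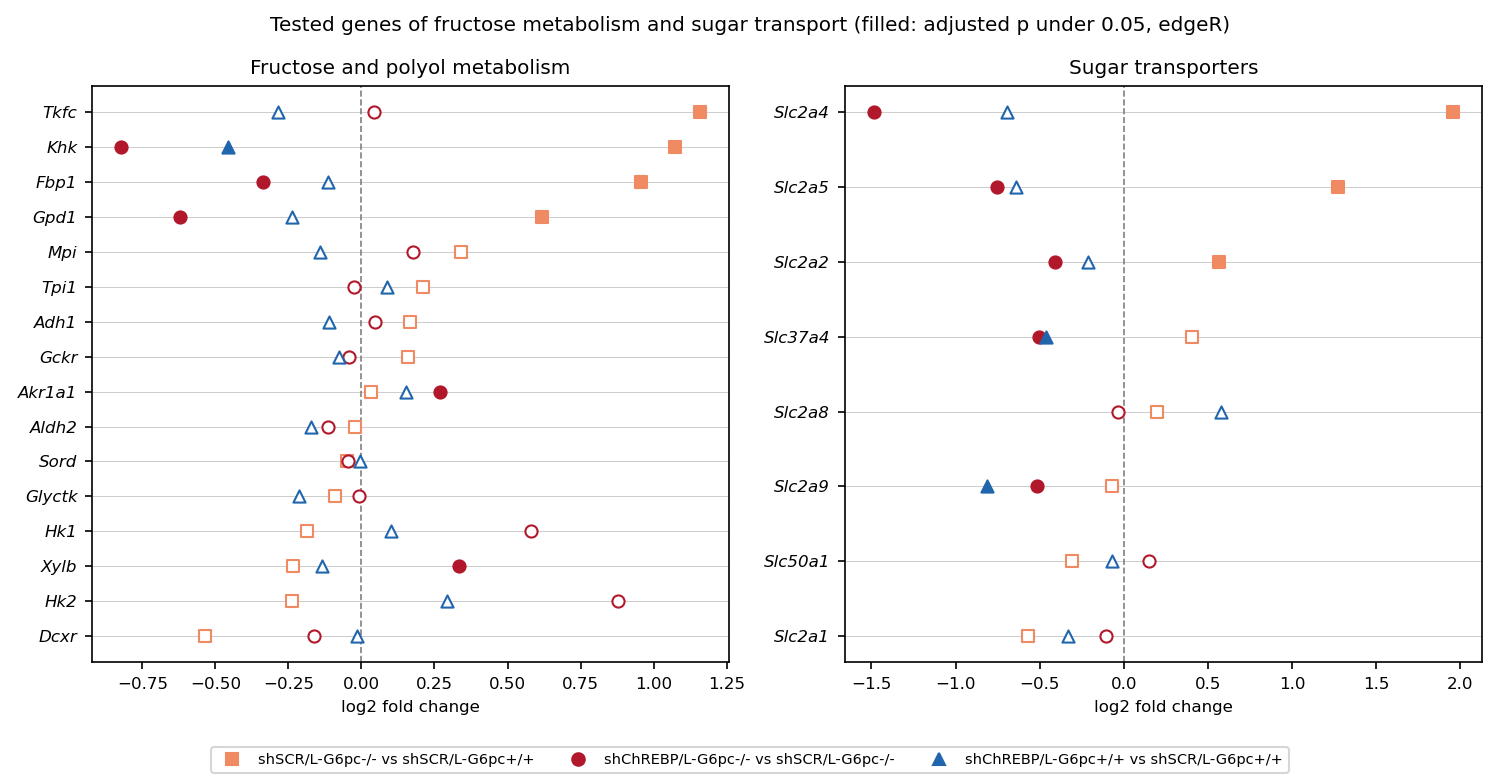
Log2 fold changes of the tested genes of fructose and polyol metabolism (left) and of sugar transport (right), with Khk, Sord and Slc2a2 among them, for shSCR/L-G6pc-/- over shSCR/L-G6pc+/+ (squares) and for the knockdown in L-G6pc-/- (circles) and in L-G6pc+/+ livers (triangles), where filled marks have an adjusted p under 0.05 in edgeR. Tkfc and Khk lie at 1.16 and 1.07 for the deletion, and Sord lies near 0 in all 3 comparisons.

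Of 14 listed ChREBP target genes, 10 rose in shSCR/L-G6pc-/- over shSCR/L-G6pc+/+ livers and 4 did not pass (median 1.38). With the knockdown 8 fell, 1 rose and 5 did not pass in L-G6pc-/- (median -0.80), and 5 fell and 9 did not pass in L-G6pc+/+ livers (median -0.71). Of all genes tested, 2.17% were called higher with the deletion (median 0.00). The knockdown lowered 4.17% of them in L-G6pc-/- (median 0.01) and 3.07% in L-G6pc+/+ livers (median 0.03). Pklr, liver pyruvate kinase, rose by 1.35 with the deletion (adjusted p = 9.56e-07, edgeR) and fell with the knockdown by 0.58 in L-G6pc-/- (adjusted p = 0.0171, edgeR) and by 0.83 in L-G6pc+/+ livers (adjusted p = 0.00348, edgeR). The log2 fold change of Pklr in L-G6pc-/- was also not called without s17 alone (-0.48) or with no filter on low counts (-0.57). With s29, s30, s32 and s33 removed, it was -0.38 and not called (adjusted p = 0.364, edgeR). In that fit 2 of the 14 targets were called lower, where 96 of all 10399 genes tested were called. The gene that rose with the knockdown in L-G6pc-/- was Fgf21, a hepatic hormone, by 1.54 (adjusted p = 0.0215, edgeR), named for that reason, and not called without those libraries (1.30, adjusted p = 0.229, edgeR).

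Of 12 tested regulators, 1 fell in shSCR/L-G6pc-/- over shSCR/L-G6pc+/+ livers, Foxa3, by 0.66 (adjusted p = 0.0163, edgeR), and 11 did not pass. Over all genes tested 1.04% were called lower there. Foxa3 is a forkhead factor of hepatocytes. Mlxipl was the 1 regulator that fell with the knockdown in each genotype, where 4.17% of all genes fell in L-G6pc-/- and 3.07% in L-G6pc+/+.

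Markers of hepatocytes and of other liver cells are given beside these results, since in bulk tissue fewer cells of a type and less RNA per cell cannot be told apart. Of 10 hepatocyte markers, Alb, the serum albumin gene, was the 1 called in shSCR/L-G6pc-/- over shSCR/L-G6pc+/+ livers, where it fell by 0.79 (adjusted p = 1.58e-05, edgeR) and 9 did not pass. In this comparison 3.21% of all genes were called. Only the L-G6pc-/- mice carried the Cre, which uses the serum albumin promoter. For Alb, as for every other gene compared between the genotypes, the presence of the Cre and the loss of G6pc cannot be told apart. With the knockdown in L-G6pc+/+ livers 0 of the 10 passed in edgeR, where 5.09% of all genes were called, and 1 had an unadjusted p under 0.05. With the knockdown in L-G6pc-/- livers Alb and Ttr, the transthyretin gene, fell and 8 did not pass, where 4.17% of all genes were called lower. Neither call held without s29, s30, s32 and s33 (Alb -0.32, adjusted p = 0.221, and Ttr -0.23, adjusted p = 0.364, edgeR), and that of Ttr was also lost with only the groups compared (-0.40, adjusted p = 0.0581, edgeR). The 10 markers summed to 14891 to 27826 CPM in shChREBP/L-G6pc-/- and 20429 to 29485 CPM in shSCR/L-G6pc-/- livers, and to 22395 to 35801 CPM in shChREBP/L-G6pc+/+ and 27331 to 34856 CPM in shSCR/L-G6pc+/+ livers. These sums were not tested.

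For the other cell types, the 6 macrophage markers summed to 519 to 844 CPM in shChREBP/L-G6pc-/- and 307 to 972 CPM in shSCR/L-G6pc-/- livers, with C1qa and Clec4f called higher and 4 not passing. The 6 endothelial markers summed to 261 to 331 CPM in shChREBP/L-G6pc-/- and 212 to 306 CPM in shSCR/L-G6pc-/- livers, with Pecam1 called higher. Of all genes tested, 3.21% were called higher with the knockdown in L-G6pc-/- livers. The 6 stellate cell markers summed to 256 to 357 CPM in shChREBP/L-G6pc-/- and 203 to 328 CPM in shSCR/L-G6pc-/- livers, with 0 called in edgeR and 2 at an unadjusted p under 0.05. The 6 cholangiocyte markers, of which 2 could be tested and 0 had an unadjusted p under 0.05, summed to 30.7 to 65.9 CPM in shChREBP/L-G6pc-/- and 22.2 to 55.6 CPM in shSCR/L-G6pc-/- livers. With the knockdown in L-G6pc-/- livers 5 of the 30 tested markers of all 5 lists were called in edgeR, where 7.38% of all genes were called. Without s29, s30, s32 and s33, 0 of the 30 were called in edgeR for this comparison, and 5 had an unadjusted p under 0.05. In that fit 96 of all 10399 genes tested were called. With the knockdown in L-G6pc+/+ livers and all libraries, 0 of the 30 were called in edgeR, where 5.09% of all genes were called. There 8 had an unadjusted p under 0.05, of which 4 were macrophage markers.

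The median log2 fold change with the knockdown in L-G6pc-/- livers was -0.27 for the hepatocyte list and -0.09 without s29, s30, s32 and s33. It was 0.24 and -0.0038 without them for the macrophage list, 0.16 and 0.26 for the endothelial list, 0.39 and 0.28 for the stellate cell list, and 0.30 and 0.0868 for the cholangiocyte list. With the knockdown in L-G6pc+/+ livers the medians were -0.12, 0.34, 0.17, 0.17 and 0.46 for the lists in the same order. None of these markers was at 0 in all libraries of a group, and their part in the values of Khk and Slc2a2 was not tested.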

How the data were processed

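Livers of 33 mouse libraries in 4 groups were measured by 3' QuantSeq, with groups taken from the labels and their meaning inferred from the study's design. The authors used HISAT for alignment to GRCm38, SAMtools for sorting and HTSeq for counting, and deposited raw counts. The authors also deposited a normalized table made with voom of limma, whose signal values are linear, so their log2 was taken for an alternative test. Versions of these tools and the use of strand are not given in the sources used here. Gene identifiers were named from GENCODE M21 (25817 of 25988).

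Counts were fitted in R 4.3.3 with edgeR 4.0.16 (filterByExpr with a minimum count of 10 and total of 15, TMM, robust quasi-likelihood F test, all 4 groups together, 10179 genes), and genes with an adjusted p under 0.05 were called. The fit was tested on simulated data. Log2 CPM used a prior count of 2, correlations 100000 permutations, and ratios exact permutation tests. Alternatives were DESeq2 1.42.0, limma 3.58.1 (limma-voom and the deposited table), other scalings, no filter, only the compared groups, each library left out, and fits that left out Gm42418, the pair s9 and s13, or s29, s30, s32 and s33. Total counts ran from 1497843 to 3546852, and the fold change of a gene with few reads is less precise.

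The members and gene lists were chosen with earlier results of these data known. Named genes were the 3 members, Mlxipl, Pklr and G6pc, up to 4 called genes with the smallest p of each list, Tkfc, Akr1b3, Slc2a1, Slc2a5 and Slc2a9, and the 5 genes of most like pattern to each member with a mean of at least 5 CPM. Some listed genes are not reported here. Sequences are from RefSeq (GRCm38.p6).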

Additional observations from a re-analysis of the deposited data

Results flagged for a closer look

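Within a group, single libraries stood far from the others in 15 of 80 groups of libraries looked at over 20 genes, by Dixon's criterion. Its chance rate of about 1 in 20 groups holds for independent, normal values. The genes here share their libraries, and the same library was flagged for several genes, so 15 of 80 cannot be set against that rate. In shChREBP/L-G6pc+/+, s12 was the highest library for Khk, at 644 CPM against 401 CPM in the next, and also for Tkfc (205 CPM), Slc37a4 (163 CPM), Acly (232 CPM) and Elovl6 (111 CPM). Its Mlxipl, at 409 CPM, lay within its group (292 to 413 CPM). In the same group s13 was the lowest for Sord (693 CPM, next 977 CPM), s16 the lowest for G6pc (69.1 CPM) and s15 the highest for Slc2a1 (9.94 CPM).

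In shSCR/L-G6pc+/+, s6 was the highest library for Tkfc (312 CPM), Fbp1 (478 CPM), Gpd1 (374 CPM) and Elovl6 (296 CPM), and, without standing apart, for Khk and Slc2a2. In shSCR/L-G6pc-/-, s17 was the highest for Pklr (461 CPM), Tkfc (613 CPM) and Gpd1 (658 CPM).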

How the results depend on the processing

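Khk kept its direction and its calls over the alternatives, with 2 exceptions. Its fall with the knockdown in L-G6pc+/+ was not called without s9 and s13 (-0.39, adjusted p = 0.0615, edgeR), and its difference between shChREBP/L-G6pc-/- and shSCR/L-G6pc+/+ was called with scaling by library size only (0.32). Slc2a2 fell with the knockdown in L-G6pc-/- by -0.39 in limma-voom, -0.39 in limma on the deposited voom table, -0.30 with library size only and -0.38 without s29, s30, s32 and s33, none of them called, and leaving out 1 library gave -0.46 to -0.33. Its difference between shChREBP/L-G6pc-/- and shChREBP/L-G6pc+/+ was called in DESeq2 (0.37), limma-voom (0.40), limma on the voom table (0.39), with library size only (0.44) and with no filter on low counts (0.38), and leaving out 1 library gave 0.32 to 0.48.

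Uncalled values near 0 changed sign. The r of Khk and Sord and the ratios named last kept their sign but crossed the threshold in some fits. Sord was 0.0264 for the knockdown in L-G6pc+/+ without s9 and s13, and with library size only it was 0.0555 for the knockdown in L-G6pc-/- and 0.0665 for the difference of the effects. Leaving out 1 library gave -0.0814 to 0.00766 for Sord in shSCR/L-G6pc-/- over shSCR/L-G6pc+/+, -0.0551 to 0.0579 for its knockdown effect in L-G6pc+/+ and -0.106 to 0.00396 for the difference. Without s29, s30, s32 and s33 the knockdown in L-G6pc-/- gave -0.11 for Tkfc and -0.18 for Foxa3, the r of Khk and Sord was 0.43 and the r of Sord and Mlxipl was -0.16. Slc2a1 gave 0.11 in limma-voom, 0.0592 in limma on the voom table and 0.00995 with library size only for the same knockdown. Leaving out 1 library gave -0.00366 to 0.173 for Tkfc, -0.0546 to 0.091 for Foxa3 and -0.309 to 0.0295 for Slc2a1 in that comparison, -0.130 to 0.052 for Foxa3 with the knockdown in L-G6pc+/+, and -0.110 to 0.0107 for Slc2a9 in shSCR/L-G6pc-/- over shSCR/L-G6pc+/+. For the ratios, leaving out 1 library gave -0.31 to -0.20 for Khk to Slc2a2 and -0.26 to -0.16 for Slc2a2 to Sord with the knockdown in L-G6pc+/+.

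Genes called in edgeR for the knockdown in L-G6pc-/- numbered 751, and 96 without s29, s30, s32 and s33. For shChREBP/L-G6pc-/- over shSCR/L-G6pc+/+ they numbered 1337, and 300.0 without those libraries. For the difference of the knockdown effects they numbered 5, against 73 in DESeq2, 35 with library size only, 12 with no filter, 50 without s29, s30, s32 and s33 and 16 without s9 and s13. Library size only moved the median log2 fold change of all genes for the knockdown in L-G6pc-/- to 0.11, against 0.01, and the share of calls that were higher to 75.9%, against 43.5%. That share was 68.6% against 51.6% for shChREBP/L-G6pc-/- over shSCR/L-G6pc+/+, 74.6% against 55.7% over shChREBP/L-G6pc+/+ and 57.6% against 67.6% for shSCR/L-G6pc-/- over shSCR/L-G6pc+/+. By Spearman rho in place of r, 2 of the 5 genes most like Khk, 2 of those like Slc2a2 and 3 of those like Sord were the same. The causes of these changes were not tested. No paired analysis was possible because the labels give no litter, pairing or block.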
